A study of Mus musculus with 16 samples.

Results

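The 6 genes Omp, Rtp1, Rtp2, Gfy, Stoml3 and Umodl1 mark mature olfactory sensory neurons or serve receptor trafficking in them, and were described across 16 Affymetrix arrays of sorted mouse olfactory mucosa. They were taken by gene symbol from the platform annotation, which assigned 1 feature to each, so the set held 6 of 19505 measured genes. The mice were C57BL/6 animals of both sexes, 7 to 12 weeks of age, that carried the S100a5-tauGFP reporter, a green fluorescent protein driven from the activity-dependent gene S100a5. The 24 animals were housed alone in chambers fed with clean air (3.1 L/min) for 40 h. After 26 h they began to receive pulses of 10 s every 20 min of the odorant whiskey lactone or of filtered air as vehicle. Dissociated cells of 3 mice formed a pool and were sorted by fluorescence. That the 2 fractions of a treatment with the same replicate number came from the same pool, giving 8 pools, was inferred from the titles, and each paired fraction difference rests on it. The 4 groups were odor pools titled GFP+, odor pools titled GFP-, vehicle pools titled GFP+ and vehicle pools titled GFP-, with 4 arrays each.

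Odorant receptors leave the endoplasmic reticulum poorly when expressed alone, and the receptor transporting proteins Rtp1 and Rtp2, short membrane proteins of olfactory neurons, bring many of them to the cell surface. Gfy, known as Goofy, is a Golgi protein of olfactory neurons on which the ciliary delivery of the adenylyl cyclase Adcy3 depends. Stoml3 is a stomatin-like membrane protein of olfactory cilia, and Umodl1, also called olfactorin, is a membrane-associated protein with a zona pellucida domain. Omp, the olfactory marker protein, is a small cytoplasmic protein that serves as the standard marker of mature olfactory sensory neurons.

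All 6 genes lay above the 95th percentile of the negative control features on all 16 arrays, the lowest signal being 8.98 log2 units above the control median of its array (Rtp2). Array medians over genes were 6.95 to 7.13 on arrays titled GFP+ and 6.62 to 6.70 on those titled GFP-. Precision is limited by having 4 arrays in a group. The labels conflict: on all 16 arrays the title and the cell type field give opposite fractions. S100a5 itself had the lower signal on the titled GFP+ side of 8 of 8 pools (log2 difference -1.29 ± 0.07, SE, limma, adjusted p = 4.82e-09). Groups are named here by title, a fraction difference is titled GFP+ minus titled GFP-, and taking the cell type field instead would turn the sign of each fraction difference. Markers of other cells moved with the same contrast. All 11 neutrophil markers were higher in arrays titled GFP+, their mean log2 signal being 13.29 to 15.44 in odor arrays titled GFP+ and 5.87 to 7.10 in those titled GFP-, and 13.74 to 14.89 and 5.96 to 7.25 in the vehicle arrays. The neutrophil granule genes Camp and Mmp9 lay at or below the control median on every array titled GFP-. Sustentacular markers were higher for 8 of 11 and macrophage markers for 11 of 11, and of 14 immature neuron markers 8 were higher and 2 lower. All measured progenitor (8), microvillar and brush cell (11) and lymphocyte (8) markers were called higher, as were 15.7% of all genes. Of these markers, Neurog1, Chat and Cd3g lay at or below the control median on every array. With median centring of the arrays 7 of 8 progenitor and 6 of 8 lymphocyte markers were higher, and of 14 immature neuron markers 7 were higher and 5 lower. Of 8 respiratory ciliated markers 7 were lower as deposited, against 27.3% of all genes. They were lower for 8 of 8 with median centring, 4 of 8 after cyclic loess and 2 of 8 after centring on neuron genes. Of these, Dnah5, not called as deposited, lay at or below the control median on every array. Sntn, called lower, did so on every array of all groups except vehicle titled GFP-. The part of these cells in the differences of the 6 genes was not tested, and in pooled RNA fewer neurons and less RNA per neuron cannot be told apart.

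Promoter sequences were available for 4 of the 6 genes and are shown for the 3 whose window holds the core of the Olf1/EBF site, the motif first described in olfactory neuron genes including Omp. They are RefSeq sequences of build GRCm38.p6, from 250 bases before to 50 bases after the transcript start, in which capitals mark CCCNNGGG, a motif that reads the same on both strands. Rtp2 (chr16:23930745-23931044, minus strand) and Umodl1 (chr17:30954433-30954732, plus strand) are the genes with the clearest differences described next, and Gfy (chr7:45179548-45179847, minus strand) is one whose smaller difference was not called.
Rtp2: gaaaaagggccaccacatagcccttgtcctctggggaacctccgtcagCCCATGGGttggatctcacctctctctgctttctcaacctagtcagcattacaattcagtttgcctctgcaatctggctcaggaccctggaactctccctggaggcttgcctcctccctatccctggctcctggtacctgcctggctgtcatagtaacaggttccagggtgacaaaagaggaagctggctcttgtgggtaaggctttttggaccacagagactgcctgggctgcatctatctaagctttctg
Umodl1: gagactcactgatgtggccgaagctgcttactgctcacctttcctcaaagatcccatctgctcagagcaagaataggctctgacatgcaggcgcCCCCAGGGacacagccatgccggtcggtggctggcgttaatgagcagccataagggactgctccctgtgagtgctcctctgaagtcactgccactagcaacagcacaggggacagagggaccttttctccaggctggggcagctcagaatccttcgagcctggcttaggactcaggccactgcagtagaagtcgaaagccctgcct
Gfy: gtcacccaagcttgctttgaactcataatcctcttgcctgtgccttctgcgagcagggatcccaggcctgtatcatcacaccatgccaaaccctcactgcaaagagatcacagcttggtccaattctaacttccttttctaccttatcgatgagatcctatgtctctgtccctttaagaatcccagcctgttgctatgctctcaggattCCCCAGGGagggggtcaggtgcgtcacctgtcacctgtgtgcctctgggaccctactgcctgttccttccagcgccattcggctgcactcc
The match began 202 bases before the start in Rtp2, 156 in Umodl1 and 41 in Gfy. The window of Stoml3 held no match, and the homeodomain core TAATTA, searched on both strands, was in 0 of the 4 windows. Of all 32851 promoter windows of that length, 13.7% held CCCNNGGG and 5.29% held TAATTA. The motif was thus found both in genes called lower between the fractions and in Gfy, whose smaller difference was not called. A match is a description of the letters only.

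Both receptor transporting proteins were called lower in the arrays titled GFP+ over all 8 pools, Rtp2 in every pool and Rtp1 in 6 of 8. Rtp2 had log2 signals of 14.63, 14.81, 14.76 and 14.64 in odor arrays titled GFP+ (replicates 1 to 4), against 14.996, 14.90, 15.23 and 14.83 in odor arrays titled GFP-. In the vehicle pools the signals were 14.56, 14.46, 14.73 and 14.69 in arrays titled GFP+, against 14.97, 14.70, 15.28 and 14.93 in arrays titled GFP-. Rtp2 was thus lower in the array titled GFP+ of every pool, the groups being apart in the odor pools and overlapping in the vehicle pools. The fitted difference was -0.28 ± 0.08 in odor pools (SE, n = 4 pools; limma, adjusted p = 0.0242) and -0.36 ± 0.08 in vehicle pools (adjusted p = 0.00575). Over all 8 pools it was -0.32 (95% interval -0.44 to -0.19), a 1.25-fold lower signal (limma, adjusted p = 0.000734). The odor call rested on single pools, with adjusted p = 0.100 without odor replicate 1 and 0.138 without odor replicate 3.

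Rtp1, the relative that acts on many receptors in heterologous cells, differed by less and less evenly. Its log2 signals were 16.71, 16.89, 16.74 and 16.78 in odor arrays titled GFP+, against 16.84, 16.93, 16.95 and 16.76 in odor arrays titled GFP-. In the vehicle pools they were 16.69, 16.59, 16.77 and 16.49 in arrays titled GFP+, against 16.92, 16.89, 16.67 and 16.82 in arrays titled GFP-. The groups overlapped under both treatments, and 6 of 8 pools had the lower signal in the array titled GFP+. The fitted differences of -0.090 ± 0.07 in odor pools (limma, adjusted p = 0.382) and -0.19 ± 0.07 in vehicle pools (adjusted p = 0.0750) did not pass the threshold. Over all 8 pools Rtp1 was 1.10-fold lower (-0.14, 95% interval -0.25 to -0.028; limma, adjusted p = 0.0440). With 1 pool left out, that call held only when the pool was odor replicate 4 or vehicle replicate 3, and adjusted p reached 0.117 otherwise. Vehicle replicate 3 had the reverse order (0.099), and the vehicle difference was -0.29 without it (limma, adjusted p = 0.00626).

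Gfy was among the steadiest of the 6 genes. Its log2 signals were 18.68, 18.58, 18.59 and 18.68 in odor arrays titled GFP+, against 18.68, 18.74, 18.70 and 18.78 in odor arrays titled GFP-. In the vehicle pools they were 18.68, 18.57, 18.65 and 18.66 in arrays titled GFP+, against 18.68, 18.65, 18.70 and 18.71 in arrays titled GFP-. The odor groups met at 18.68 without crossing and the vehicle groups overlapped, and group SDs stayed between 0.024 and 0.054. Over all 8 pools the difference was -0.067 (95% interval -0.134 to -0.00031), in the same direction in 7 pools, and it did not pass (limma, adjusted p = 0.0948).

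Umodl1 showed the clearest separation of the 6. Its log2 signals were 16.82, 17.12, 16.76 and 17.03 in odor arrays titled GFP+, against 17.32, 17.29, 17.28 and 17.18 in odor arrays titled GFP-. In the vehicle pools they were 16.70, 16.86, 16.90 and 16.94 in arrays titled GFP+, against 17.13, 17.15, 17.18 and 17.14 in arrays titled GFP-. The fractions did not overlap under either treatment, and the arrays titled GFP+ spread more (SD 0.17 and 0.10 in odor and vehicle pools) than those titled GFP- (SD 0.059 and 0.025). The difference was -0.34 ± 0.07 in odor pools (limma, adjusted p = 0.00373) and -0.30 ± 0.07 in vehicle pools (adjusted p = 0.00790). Over all 8 pools Umodl1 was 1.25-fold lower in arrays titled GFP+ (-0.32, 95% interval -0.43 to -0.21; limma, adjusted p = 0.000261). Without vehicle replicate 1 the vehicle difference of -0.26 no longer passed (adjusted p = 0.0557).

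Omp and Stoml3 differed little. Omp had log2 signals of 18.43, 18.60, 18.54 and 18.58 in odor arrays titled GFP+, against 18.60, 18.61, 18.83 and 18.67 in odor arrays titled GFP-. In the vehicle pools Omp gave 18.48, 18.55, 18.63 and 18.71 in arrays titled GFP+, against 18.61, 18.67, 18.69 and 18.67 in arrays titled GFP-. The odor groups touched at 18.60 without crossing, and the vehicle groups overlapped. Over all 8 pools Omp was 1.07-fold lower in arrays titled GFP+ (-0.10, 95% interval -0.18 to -0.021; limma, adjusted p = 0.0422). With 1 pool left out, that call held only when the pool was odor replicate 2 or vehicle replicate 4, and adjusted p reached 0.127 otherwise. The odor difference alone, -0.14 ± 0.05, missed the threshold (limma, adjusted p = 0.0667) and passed without odor replicate 2 (-0.18, adjusted p = 0.0384). Stoml3 had log2 signals of 19.17, 19.16, 19.09 and 19.18 in odor arrays titled GFP+, against 19.17, 19.20, 19.14 and 19.24 in odor arrays titled GFP-. In the vehicle pools Stoml3 gave 19.17, 19.17, 19.23 and 19.16 in arrays titled GFP+, against 19.18, 19.21, 19.16 and 19.13 in arrays titled GFP-. Its groups overlapped under both treatments, and the difference over 8 pools was -0.012 (95% interval -0.073 to 0.049; limma, adjusted p = 0.741).

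**Figure D1:**
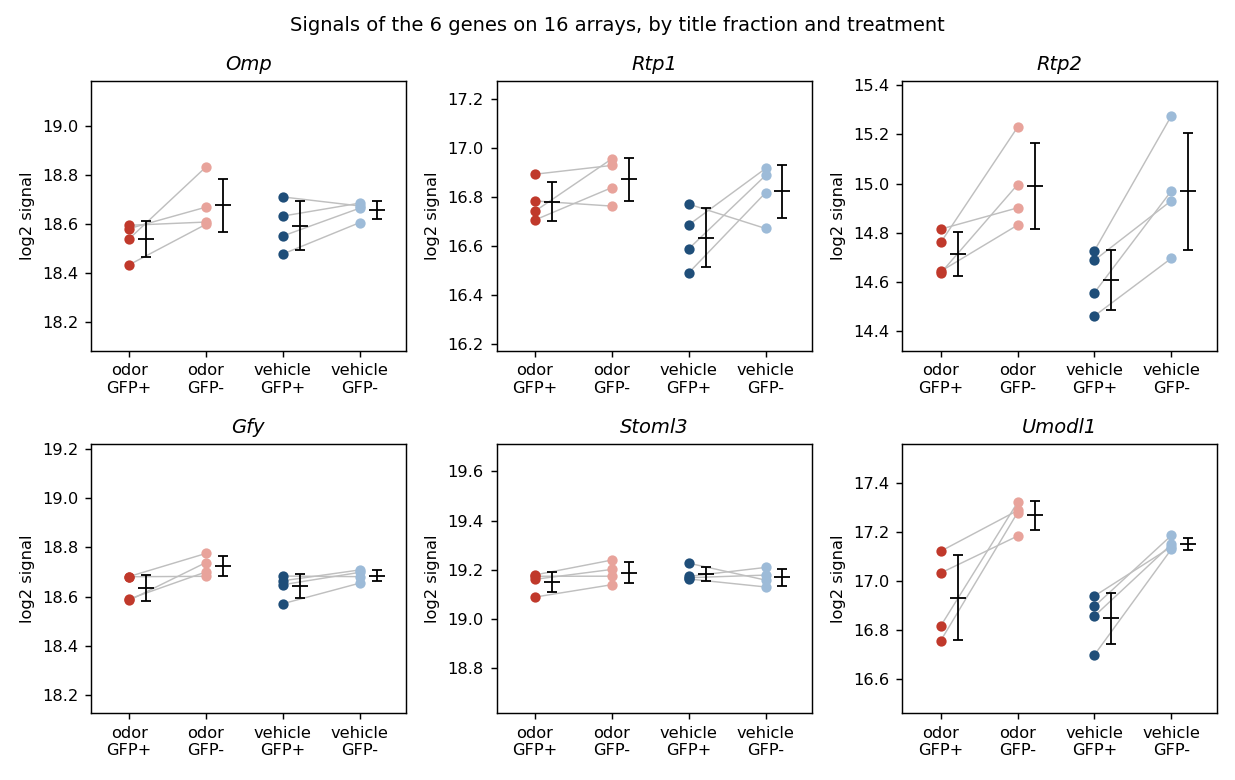
Log2 signal of each gene (vertical axes, each spanning the same number of log2 units) on the 16 arrays, by treatment and title fraction, with grey lines joining the fractions of a pool and black marks for the mean ± SD (n = 4). Umodl1 separates the fractions under both treatments, whereas the differences of Stoml3 and Gfy are small.

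Between the fractions, 2 of the 6 genes were lower in the odor pools (14.7% of all 19505 genes were), the same number in the vehicle pools (13.6% of all genes), and 4 over all 8 pools (27.3% of all genes). Over 8 pools the share lower was 44.3% among genes with a mean signal of 14 to 16, where Rtp2 falls. It was 50% at 16 to 18 (Rtp1 and Umodl1) and 22.2% of the 9 genes above 18 (Omp, Gfy and Stoml3 among them). Rtp2 and Umodl1 made up the calls under each treatment, and Omp and Rtp1 joined them over 8 pools. With same-numbered pools averaged into 4 sets, Rtp1, Rtp2 and Umodl1 were still lower (limma, adjusted p = 0.0370, 0.00780 and 0.00278) and Omp no longer passed (adjusted p = 0.0705). A lower signal in all 8 pools was found for 2 of the 6 genes, against 16.5% of all genes. All arrays titled GFP+ lay below all titled GFP- for 4 of the 6 genes in the odor pools (14.3% of all genes), namely Omp, Rtp2, Gfy and Umodl1, and for 1, Umodl1, in the vehicle pools (13.6% of all genes). The median of the 6 differences over 8 pools was -0.12, close to the median of all genes, -0.16.

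**Figure D2:**
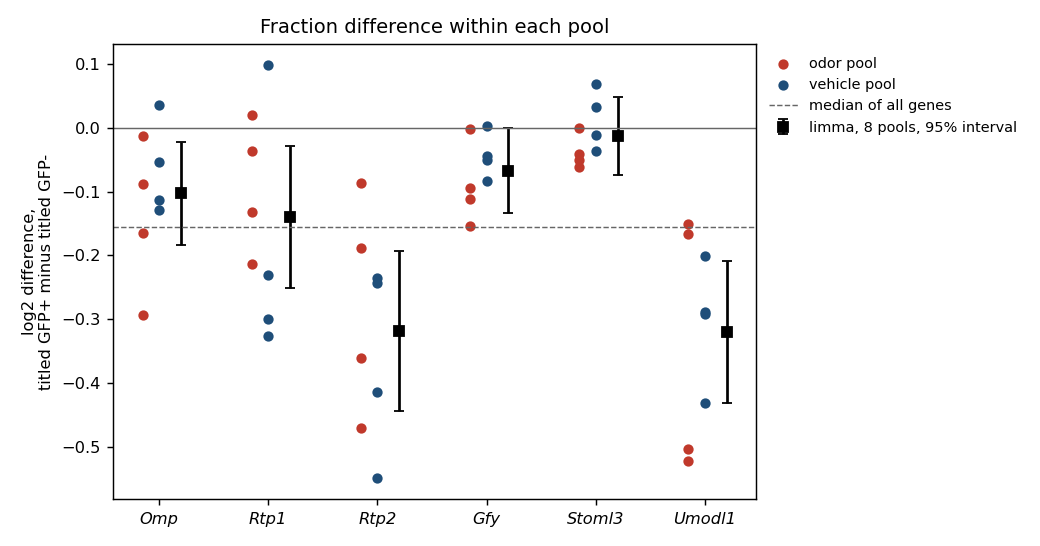
Log2 difference between the array titled GFP+ and the array titled GFP- of each pool (vertical axis) for the 6 genes, with odor and vehicle pools as points, the limma estimate over 8 pools with its 95% interval as squares, and the median of all genes (-0.16) as a dashed line. All 8 points of Rtp2 and of Umodl1 lie below 0.

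These fraction differences depended on how the arrays were scaled. Array medians were higher on every array titled GFP+ than on any titled GFP-. Centring on them made all 6 genes lower over the 8 pools, from -0.69 for Rtp2 and Umodl1 to -0.39 for Stoml3. The median of all genes moved to -0.53 with it, and 15071 of all 19505 genes were lower and 2103 higher. Centring on 19 other olfactory transduction and mature neuron genes moved the median of all genes to 0.11 and turned Omp (0.16, limma, adjusted p = 0.00732), Gfy (0.20, adjusted p = 0.00822) and Stoml3 (0.25, adjusted p = 0.000724) to higher calls. Rtp1 stood at 0.12 (limma, adjusted p = 0.118) with that centring, under which 5101 of all 19505 genes were higher and 1242 lower. Rtp2 and Umodl1 kept a negative sign there but lost the call (-0.056 and -0.057, adjusted p = 0.491 and 0.344). After cyclic loess Rtp2 (-0.22, adjusted p = 0.00644) and Umodl1 (-0.25, adjusted p = 0.000498) were still lower, Omp and Rtp1 no longer passed (adjusted p = 0.199 and 0.306), and Stoml3 had the opposite sign (0.029).

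**Figure D3:**
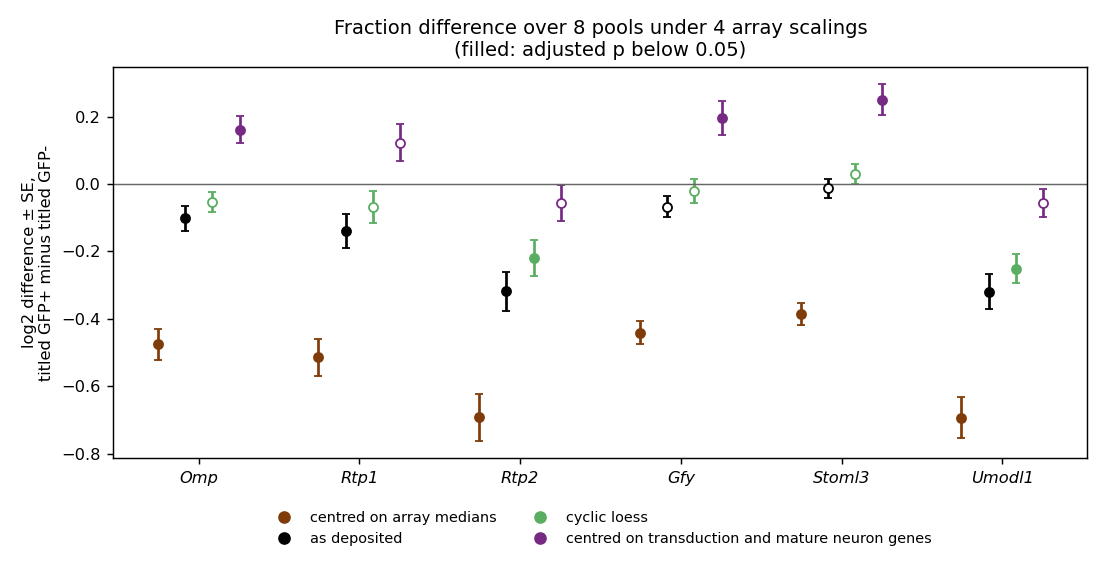
Log2 difference ± SE between the arrays titled GFP+ and GFP- over 8 pools (vertical axis) for each gene under 4 scalings of the arrays, filled where the adjusted p is below 0.05. Every gene shifts with the scaling, and Rtp2 and Umodl1 stay below the other 4 genes under each. Either centring takes the same constant from all genes of an array and cannot change this order, so only cyclic loess could have.

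The difference of 2 features on the same array does not move when a constant is added to all values of an array, so the 6 genes were also set against each other within arrays, by their change between fractions and not by their level. In each pool the change of each of the 15 pairs was computed and tested with an exact sign-flip permutation test over 8 pools, two-sided, where the smallest p the design allows is 0.00781. The test takes the 8 pools as independent, although same-numbered odor and vehicle pools deviated together in most cases (correlation of their fraction differences about the treatment mean, across all genes, 0.073 to 0.25). Rtp2 fell relative to Stoml3 by 0.31 ± 0.18 (SD, n = 8 pools) and in 8 of 8 pools (exact p = 0.00781, adjusted p = 0.0234 over the 15 pairs). Stoml3 minus Umodl1 changed by 0.31 ± 0.16 and Gfy minus Umodl1 by 0.25 ± 0.18, both positive in 8 of 8 pools (exact p = 0.00781, adjusted p = 0.0234 for each). Omp minus Rtp2 and Omp minus Umodl1 changed by 0.22 ± 0.14 and 0.22 ± 0.09 with the same p, and Rtp2 minus Gfy by -0.25 ± 0.19 in 7 of 8 pools (exact p = 0.0156, adjusted p = 0.0391). In all, 6 of the 15 pairs passed over 8 pools, each joining Rtp2 or Umodl1 with Omp, Gfy or Stoml3. With same-numbered pools averaged into 4 sets, each of these 6 pairs had the same sign in 4 of 4 sets, but the smallest exact p is then 0.125, so 0 of the 15 pairs could pass. The pair Rtp2 and Umodl1 itself changed by 0.00099 ± 0.12 (exact p = 1), and the 2 transporting proteins differed by 0.18 ± 0.23 (Rtp1 minus Rtp2, positive in 6 of 8 pools, exact p = 0.0547, adjusted p = 0.0820).

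Signal strength moved with this split. Stoml3 was the brightest feature of all 16 arrays (19.09 to 19.24), Gfy lay 0.42 to 0.60 and Omp 0.30 to 0.74 log2 units below the brightest feature, and Rtp1, Umodl1 and Rtp2 at least 2.18, 1.85 and 3.88 units below it. Only 9 genes had a mean signal above 18, among them these 3, and their fraction differences over 8 pools ran from -0.11 to -0.012. The same 9 included Sult1d1 at -0.050, a member of the sustentacular marker list (median 2.00) picked out after its value was seen. Sult1d1 was among the 3 of 11 measured members of that list that were not called. Whether it marks sustentacular cells on these arrays was not tested. Among the 152 genes with a mean of 16 to 18, where Rtp1 and Umodl1 fall, the differences ran from -2.04 to 0.79, and among the 596 genes with a mean of 14 to 16, where Rtp2 falls, from -1.99 to 4.15. The part of signal strength in the small differences of Omp, Gfy and Stoml3 was not tested.

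**Figure D4:**
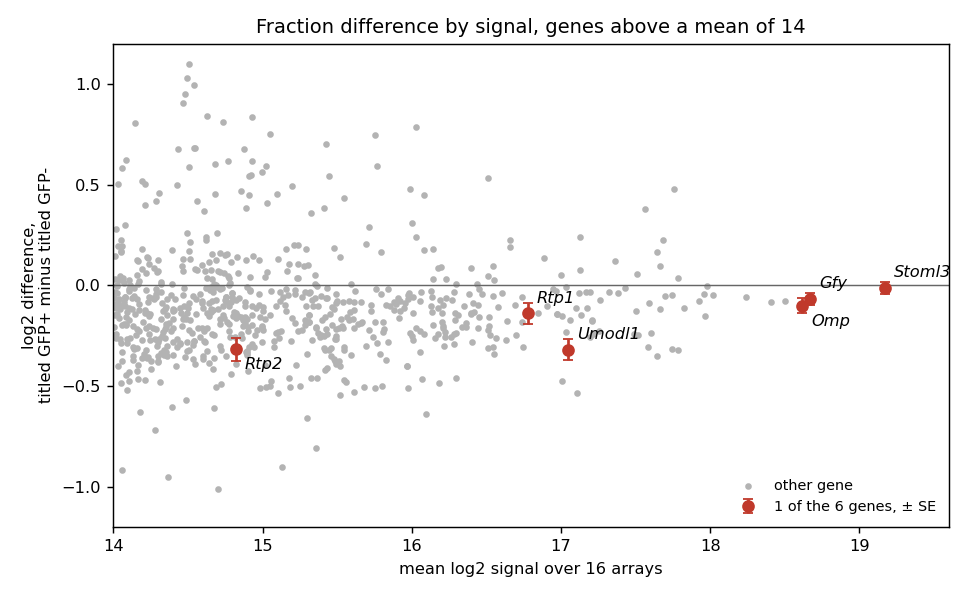
Log2 difference between the arrays titled GFP+ and GFP- over 8 pools (vertical axis) against the mean log2 signal over 16 arrays (horizontal axis) for genes with a mean above 14, with the 6 genes in red (± SE) and 736 others in grey; 15 other genes beyond ± 1.2 are not drawn. Differences of genes above a mean of 18 lie close to 0.

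Whiskey lactone against filtered air left the 6 genes without a call in either fraction. In the arrays titled GFP+ 0 of 6 passed (limma; 0.00513% of all genes did), and 0 of 6 had an unadjusted p below 0.05. The differences, odor minus vehicle, ran from -0.056 for Omp to 0.15 for Rtp1, whose 95% interval was -0.013 to 0.31 (limma across all genes, unadjusted p = 0.0690, adjusted p = 1.00). In the arrays titled GFP- 0 of 6 passed (limma; 0% of all genes did), again with 0 of 6 at an unadjusted p below 0.05, and the differences ran from 0.020 for Stoml3 to 0.12 for Umodl1 (95% interval -0.046 to 0.28, limma, adjusted p = 0.916). The odor and vehicle groups overlapped for all 6 genes in both fractions, where 2.38% (titled GFP+) and 4.45% (titled GFP-) of all genes did not overlap. The 95% intervals of the 6 genes excluded differences in array signal above 1.26-fold in arrays titled GFP+ and above 1.21-fold in arrays titled GFP-. Omp, Gfy and Stoml3 were among the brightest features, and the part of signal strength in their narrow intervals was not tested.

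**Figure D5:**
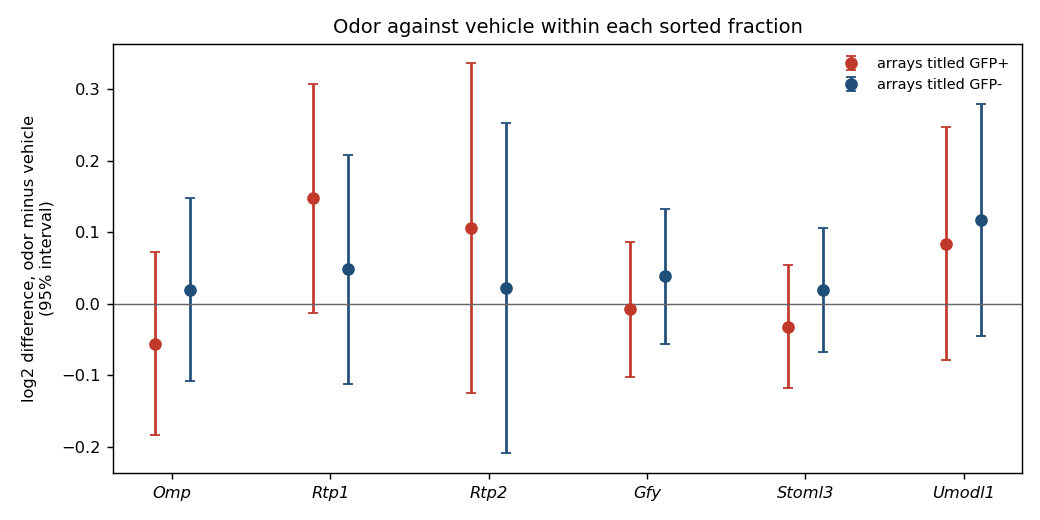
Log2 difference between odor and vehicle arrays (vertical axis) for each gene, with the 95% interval of limma, in arrays titled GFP+ (red) and titled GFP- (blue). Each interval includes 0.

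The fraction difference itself did not pass as different between treatments for any of the 6 genes (0 of 6, limma, against 0.00513% of all genes, and 0 of 6 at an unadjusted p below 0.05). The difference of differences, odor minus vehicle, ran from -0.075 for Omp to 0.099 for Rtp1, with 95% interval bounds between -0.26 and 0.34 and the smallest unadjusted p at 0.331.

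Genes of the same pathways gave a context for these differences over the 8 pools, with 15.7% of all genes higher on the titled GFP+ side and 27.3% lower. Among genes with a mean signal of 14 to 16 and of 16 to 18, 44.3% and 50% were lower. Of 19 measured transduction and mature neuron genes, 14 were lower and 1 higher, with a median of -0.28. Among them were the phosphodiesterases Pde1c (-0.81 ± 0.07, SE, limma, adjusted p = 4.96e-07) and Pde4a (-0.47 ± 0.06) and the scaffold protein gene Dlg2 (-0.69 ± 0.07). Nrcam, a neuronal adhesion molecule, was the higher member (0.81 ± 0.16) and exceeded the control median on 8 of 16 arrays. Adcy3, the cyclase whose delivery involves Gfy, was lower as well (-0.26 ± 0.05, adjusted p = 0.00200). Of 21 ciliary delivery genes 16 were lower and 0 higher (median -0.28), with the Bardet-Biedl complex genes Ttc8 (-0.52 ± 0.07), Bbip1 (-0.50 ± 0.07) and Bbs7 (-0.48 ± 0.09) and the ciliary cargo adaptor Tulp3 (-0.43 ± 0.10) showing the largest differences. Of 12 transcriptional regulators of these neurons 7 were lower and 0 higher (median -0.18), led by Emx2 (-0.39 ± 0.08), Zfp423 (-0.38 ± 0.14), Ebf2 (-0.31 ± 0.05) and Atf5 (-0.29 ± 0.05).

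These list counts depended on the scaling, as did those over all genes. Of 19505 genes, 15071 were lower and 2103 higher with median centring, and 2518 and 3825 after cyclic loess. Centring on neuron genes gave 1242 lower and 5101 higher. With median centring 18 of 19 transduction and mature neuron genes, 21 of 21 ciliary delivery genes and 12 of 12 transcriptional regulators were lower, and 1, 0 and 0 higher. After cyclic loess 11, 6 and 5 genes of these lists were lower and 2, 1 and 0 higher. After centring on the transduction and mature neuron genes, 2 ciliary delivery genes were lower and 1 higher, and 0 transcriptional regulators were lower and 4 higher. The first list is balanced around 0 by that centring itself, so its own count there is not read. Pde1c (-0.55), Dlg2 (-0.43), Pde4a (-0.21), Ttc8 (-0.25) and Bbip1 (-0.24) were still lower after neuron centring, whereas Adcy3 stood at 0.0061 (limma, adjusted p = 0.954). Bbs7, Tulp3, Emx2, Zfp423, Ebf2 and Atf5 no longer passed there (adjusted p from 0.0827 to 0.663).

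Relatives of the 6 genes went in both directions. Of 12 relatives 3 were higher and 3 lower over the 8 pools, against 15.7% and 27.3% of all genes. Median centring gave 2 higher and 8 lower, cyclic loess 4 higher and 2 lower, and neuron centring 5 higher and 2 lower. Rtp3, Umod and Reep2 lay at or below the control median on every array. Reep5 (3.58 ± 0.17, limma, adjusted p = 1.54e-09) and Reep4 (1.49 ± 0.19), receptor expression enhancing proteins that shape the endoplasmic reticulum, were higher in arrays titled GFP+. The stomatin relative Stoml1 (-0.66 ± 0.09) and Reep6 (-0.57 ± 0.09) were lower. Reep1, which was identified with the transporting proteins as a promoter of receptor surface expression in heterologous cells, was lower as deposited (-0.24 ± 0.08, limma, adjusted p = 0.0267) but not after cyclic loess or neuron centring (adjusted p = 0.266 and 0.834). Reep4, Reep5, Reep6 and Stoml1 passed in the same direction under both of those scalings. Stom, the founding stomatin, had a difference of -0.076 (95% interval -0.147 to -0.0052) and did not pass.

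The genes most like each of the 6 were found by the root mean square difference of the 16 log2 signals, each gene centred on its own mean, among 10404 genes above the control median on all arrays. Gfy and Stoml3 were close to each other (0.050 log2 units), Gfy ranking first for Stoml3 and Stoml3 next after Stom (0.045) for Gfy. Gnb1, a G protein subunit, came after these for Gfy (0.052), and Hnrnpk, an RNA-binding protein, and Stom followed Gfy for Stoml3 (0.051 and 0.055). Omp lay nearest to the phosphatase Ptp4a3 (0.064), the clathrin heavy chain Cltc (0.067) and the amyloid precursor App (0.067). Rtp1 lay nearest to Manea (0.067), Gtf3c6 (0.084) and the amyloid precursor relative Aplp2 (0.087), and Rtp2 to the calcium channel Cacna1h (0.098), Spef2 (0.10) and Tollip (0.10). Umodl1 lay nearest to the microtubule-associated Map1b (0.077), the transporter Abcc1 (0.079) and Faim2 (0.080). The transporting proteins were not near neighbours, Rtp2 ranking 1684 for Rtp1 and Rtp1 ranking 758 for Rtp2. Umodl1 ranked 118 for Rtp2, but Rtp2 ranked 463 for Umodl1, behind Rtp1 (421) and Omp (427). The distance is not scaled to the spread of a gene, so genes that vary little lie close to each other whatever their pattern. Over the 16 arrays Gfy and Stoml3 ranged over only 0.21 and 0.15 log2 units, and Rtp2 over 0.82. All 16 arrays share pools and fractions, so these distances describe the arrays and carry no test.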

How the data were processed

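Biotinylated cRNA was run on 16 arrays. The authors deposited log2 signals, for which the submitters' processing notes name Affymetrix Expression Console. Which version and normalization were used is not given in the sources used here. That the scale is log2 was inferred from the values. The platform annotation named 19572 of 28846 features, and 1 feature was kept per gene, the one with the highest mean (19505 genes). Background was measured by 5222 negative control features.

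Groups and replicate numbers come from the titles. The 6 genes and the 12 gene lists (159 genes, 146 measured) were chosen with earlier results of these data known. No 2 arrays were duplicates (smallest SD of log2 differences 0.554). All fits were made in limma 3.58.1 (R 4.3.3) with a trended variance prior, and two-sided p-values were adjusted over all genes after Benjamini and Hochberg (threshold 0.05). Each pool was a fixed block for the fraction differences (6 residual degrees of freedom) and a random block for odor against vehicle (12, correlation 0.164). Scripts were tested on simulated data. Named genes were the 6 genes, S100a5, up to 4 called members with the largest differences of each list described, and the 3 nearest genes of each of the 6. Adcy3, Reep1, Camp, Mmp9, Sult1d1, Neurog1, Chat, Cd3g, Dnah5 and Sntn were named outside this rule after their values were seen. The fractions of 1 pool deviated together (correlations of deviations from group means 0.116 to 0.341), and same-numbered pools of both treatments did so at 0.0787 to 0.410 in arrays titled GFP+ and 0.198 to 0.279 in arrays titled GFP-. Alternatives were 3 other array scalings, a filter on dim genes, all features tested one by one, no variance trend, other blocks and each pool left out. The list counts under other scalings and the fits over 4 sets of same-numbered pools were added after the data were seen.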

Additional observations from a re-analysis of the deposited data

Results flagged for a closer look

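Stoml3 gave a log2 signal of 19.23 in the vehicle array titled GFP+ of replicate 3, apart from the other 3 arrays of its group by 0.054, a gap that made up 0.836 of the range of the group. Among the 36 groups of 4 values of the 6 genes that were looked at this way, it was the only one past Dixon's 95% critical value, and chance passes about 1 in 20. Without that pool the vehicle fraction difference of Stoml3 was -0.0048, against 0.014 with it.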

How the results depend on the processing

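Of 588 values of the 6 genes under an alternative, 515 kept direction and side of the threshold. The 98 fraction differences of Rtp2 and Umodl1 under these alternatives were negative, 84 of them on the same side of the threshold. Only the array scalings could have turned these signs. Both genes were lower in every pool, so leaving pools out cannot turn them. The filter, trend and block settings leave these estimates as they are. The cause of the changes among the 588 values was not tested. With neuron centring Omp, Rtp1, Gfy and Stoml3 became 0.11, 0.16, 0.16 and 0.21 in odor pools, Omp, Rtp1 and Gfy 0.21, 0.086 and 0.23 in vehicle pools, and Omp, Rtp1, Gfy and Stoml3 0.16, 0.12, 0.20 and 0.25 over 8 pools, and 1 of the 6 genes was called in odor pools. With median centring Stoml3 became -0.35 in vehicle pools, Omp, Rtp2 and Stoml3 became -0.015, -0.013 and -0.015 for odor against vehicle in arrays titled GFP-, and all 6 genes were called in odor and in vehicle pools. Cyclic loess turned Gfy to 0.018 in vehicle pools and Stoml3 to 0.029 over 8 pools, and left 1 call in odor pools and 2 over 8 pools. Without the variance trend 0, 1 and 2 of the 6 genes were called in odor pools, vehicle pools and over 8 pools, and without the replicate block 1 in odor pools.

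Over all genes, 14808, 14357 and 17174 were called in odor pools, vehicle pools and over 8 pools after median centring, against 5362, 5064 and 8393 as deposited. The higher and lower calls over 8 pools were 3070 and 5323 as deposited, 2103 and 15071 with median centring, 3825 and 2518 with cyclic loess, and 5101 and 1242 with neuron centring. In odor pools they were 2502 and 2860, 1902 and 12906, 2922 and 1395, and 3449 and 894 in that order, and in vehicle pools 2406 and 2658, 1818 and 12539, 2792 and 1411, and 3722 and 761. For odor against vehicle, 2 genes titled GFP+ and 15 titled GFP- were called with the replicate block across treatments, 0 of them among the 6, against 1 and 0 with the pool as a random block. With no block the counts were 0 and 1. The difference between treatments had 2 genes called with the replicate block across treatments, against 1. With same-numbered pools averaged, 0 of the 15 pairs passed, since 4 sets allow no p below 0.125. Leaving out dim genes gave 0 in arrays titled GFP+, as did omitting the variance trend, which also gave 0 for the difference between treatments.

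With each pool left out in turn, 1 to 3 of the 6 genes were called in odor pools, 1 to 3 in vehicle pools and 2 to 3 over 8 pools, 5 to 6 of the 15 pairs passed, and 0 to 8 (titled GFP+) and 0 to 2 (titled GFP-) genes were called between treatments. Values near 0 turned sign in these omissions: the vehicle fraction difference of Stoml3 (-0.0048 to 0.030), the difference between treatments of Umodl1 (-0.095 to 0.029), Gfy in arrays titled GFP+ (-0.031 to 0.0091), and Omp (-0.032 to 0.046), Rtp1 (-0.0023 to 0.084) and Rtp2 (-0.069 to 0.12) in arrays titled GFP-.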
